A study of Mus musculus with 6 samples.

Results

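CTCF ChIP-seq regions were examined around 9 mouse genes at 5 loci where changes to chromatin domain boundaries are known to alter limb or skeletal development. The loci were Shh-Lmbr1 on chromosome 5, Sox9-Kcnj2 on chromosome 11, Epha4-Pax3 and Ihh-Wnt6 on chromosome 1, and Pitx1 on chromosome 13. A region belonged to the set when it overlapped the body of one of these genes or lay within 100 kb of it, on genome build mm9 with GENCODE vM1 genes. This gave 71 regions of the 57662 in the study's merged list of CTCF peaks. Ihh-Wnt6 held 35 of them, Pitx1 11, Shh-Lmbr1 10, Epha4-Pax3 9 and Sox9-Kcnj2 6.

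The cells were mouse embryonic stem cells (mESCs) grown in serum with LIF, in which the endogenous CTCF carried a degron tag and was removed with auxin in both groups. WT_CTCF cells expressed introduced wild-type CTCF, and MUT_CTCF cells expressed CTCF mutated at threonine 668, which the study replaced by alanine so that this site could not carry O-GlcNAc, a single-sugar modification of proteins. Each group had 2 CTCF ChIP libraries with Drosophila spike-in chromatin, and 1 input library per group was not analysed here. The lines were clones picked for a CTCF level near the endogenous one, so genotype and clone cannot be told apart from the values used here. The study also examined additional clones of each genotype, and no separate data of those were used here. The files hold no expression values against which the stem cell label could be checked. The study's methods call the libraries of a line biological replicates, without saying whether they came from separate cultures, and p-values measure the spread between these libraries.

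Through its zinc fingers CTCF recognises a long DNA motif, and at such sites it halts cohesin, the complex that extrudes chromatin loops. Loops and domain boundaries form most often between motifs that point towards each other, and a boundary keeps the enhancers of one domain from acting on genes of the next. Shh encodes a secreted ligand that patterns the limb, and its limb enhancer lies far away in an intron of Lmbr1. Sox9 encodes a transcription factor of cartilage and testis, and Kcnj2, its neighbour across a gene desert, encodes a potassium channel. Epha4 encodes an ephrin receptor, Pax3 a transcription factor of neural crest and muscle precursors, Ihh a secreted ligand of the growth plate, and Wnt6 a secreted Wnt ligand. Rearrangements across the Epha4 domain are known to place its limb enhancers next to Pax3, Ihh or Wnt6. Pitx1 encodes a homeodomain factor of hindlimb identity. Most of these genes act in later embryos, and the values below describe stem cells.

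For each library the deposited files list peaks, each with a score, a width and a summit. The score is the number the peak caller gave for the strength of a peak. It is not a read count, and read depth is unknown, so a lower score is not by itself a lower level of bound CTCF. The study's table also gives, for each region, the authors' mean of spike-in scaled read counts over the 4 libraries.

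The core CTCF motif, a 13-base consensus, was searched on both strands with at most 1 mismatch, and 45 of the 71 regions (63.4%) held a match. The share over all regions was 60.6%, and 4.42% of intervals of the same widths placed 5000 bp outside the regions held one. The matches lay at a median of 10 bp from the mean summit, and 43 of 45 were within 50 bp of it. The sequences that carry the results below are printed 5′ to 3′ on the strand of the match, from mm9, with the matched 13 bases in capitals and 15 bases on each side. The first pair lies in the Ihh-Wnt6 region with the highest authors' mean of the locus, which was called as 1 peak with WT_CTCF and as 2 with MUT_CTCF.
Ihh-Wnt6 region of highest mean, left match (chr1:74854876-74854888, minus strand): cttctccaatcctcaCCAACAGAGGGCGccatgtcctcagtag
Ihh-Wnt6 region of highest mean, right match (chr1:74855759-74855771, plus strand): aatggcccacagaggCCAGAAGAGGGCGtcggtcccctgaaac
The next ones lie in the regions upstream of Shh, Epha4 and Pitx1 that are nearest to each gene's start, and in the intron of Ihh.
Shh upstream (chr5:28796506-28796518, plus strand): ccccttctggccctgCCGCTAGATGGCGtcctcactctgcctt
Epha4 upstream (chr1:77513020-77513032, minus strand): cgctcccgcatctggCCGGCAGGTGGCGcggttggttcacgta
Pitx1 upstream (chr13:55945273-55945285, minus strand): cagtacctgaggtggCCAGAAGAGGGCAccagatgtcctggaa
Ihh intron (chr1:74995579-74995591, plus strand): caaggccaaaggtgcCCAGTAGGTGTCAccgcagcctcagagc
The following belong to 2 regions whose score was higher with MUT_CTCF once the shift of all regions was removed, and to the Lmbr1 intron region that was divided with MUT_CTCF.
Lmbr1 upstream (chr5:29716103-29716115, plus strand): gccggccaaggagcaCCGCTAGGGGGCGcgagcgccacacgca
Ccdc108 exon (chr1:74973467-74973479, plus strand): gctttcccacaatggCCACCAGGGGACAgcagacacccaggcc
Lmbr1 intron (chr5:29601480-29601492, minus strand): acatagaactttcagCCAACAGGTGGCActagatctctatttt
The last is a weaker region in an intron of Pcbd2, near Pitx1, with the same 13 letters as the strong Pitx1 region above.
Pcbd2 intron (chr13:55846831-55846843, plus strand): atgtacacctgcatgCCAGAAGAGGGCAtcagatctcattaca

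The 5 loci differed in how densely CTCF regions were placed. Ihh-Wnt6 had 9.22 regions per 100 kb of window and Pitx1 5.21, against 2.17 over the genome. Shh-Lmbr1 (1.79), Sox9-Kcnj2 (1.44) and Epha4-Pax3 (1.40) lay below the genome value. The gaps between the paired genes ran from 160.0 kb between Wnt6 and Ihh to 1705 kb between Kcnj2 and Sox9.

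A CTCF region lay in the 3000 bp upstream of Shh, Sox9, Kcnj2, Epha4 and Ihh. The mean summit was 1355 bp upstream of the start of Epha4, and likewise 1355 bp upstream of that of Kcnj2. It was 2207 bp upstream of Sox9, 2897 bp upstream of Shh and 2693 bp upstream of Ihh, where a region in the Ihh intron, 2655 bp past the start, was slightly nearer. The nearest regions to Pax3, Lmbr1 and Pitx1 were 3242, 4565 and 7732 bp upstream, and the nearest to Wnt6 was 4153 bp past its start, in an intron. Of all 71 regions, 13 were in a promoter, 5 others touched an exon, 25 were in introns and 28 were intergenic, shares of 18.3%, 7.04%, 35.2% and 39.4%. The shares over all regions were 15.7%, 7.85%, 34.6% and 41.8%.

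Motif orientation was mixed at every locus. On the plus strand lay 20 matches and on the minus strand 25. Shh-Lmbr1 had 4 plus and 3 minus, Ihh-Wnt6 12 plus and 11 minus, and Pitx1 2 plus and 7 minus. Of 37 neighbouring pairs of regions with a match, 8 pointed towards each other (21.6%), 10 away from each other (27.0%) and 19 the same way (51.4%). The shares over all neighbouring pairs in the genome were 24.4%, 24.4% and 51.2%. Convergent neighbours were 6 of 22 pairs at Ihh-Wnt6 and 2 of 8 at Pitx1. None were found within the windows of the other 3 loci, which held 5 pairs at Shh-Lmbr1, 1 at Sox9-Kcnj2 and 1 at Epha4-Pax3.

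Beyond the windows, the deserts between the paired genes held more regions. Between Kcnj2 and Sox9 there were 17, with 6 plus and 5 minus matches. Their median authors' mean was 132.75, against 95.25 over all regions. Of the 17, 14 were called in all 4 libraries, against 52.6% of all regions. Of those 14, 12 were lower with MUT_CTCF on the peak score described below, against 90.4% of all regions tested. Once the shift of all regions was removed, 2 of the 14 were higher (limma adjusted p = 0.0449 and 0.0367), against 1.95%. A count of 2 is too few to set against that share. These 2 were named after their values were seen. The first, at chr11:111964424-111965143, scored 603 and 537 with WT_CTCF and 473 and 533 with MUT_CTCF. The second, at chr11:112386330-112386668, scored 113 and 90 with WT_CTCF and 129 and 96 with MUT_CTCF, so that its groups overlapped. With absent scores set to the lowest, 0 regions over the genome were higher once the shift was removed. Between Epha4 and Pax3 there were 7, with a median authors' mean of 290.75, of which 5 were called in all 4 libraries. All 5 were lower on the peak score, and 0 were lower or higher once the shift was removed. Between Shh and Lmbr1 there were 2, neither called in all 4, with authors' means of 33.0 and 33.25.

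Fewer regions were called around these genes with MUT_CTCF than with WT_CTCF. The WT_CTCF libraries had peaks in 65 and 68 of the 71 regions (66.5 ± 2.12, SD, n = 2), and the MUT_CTCF libraries in 43 and 45 (44.0 ± 1.41, SD, n = 2). The groups did not overlap, with a two-sided exact permutation p = 0.33, which is the smallest that 2 libraries against 2 allow. The ratio of the means was 0.662, and over all regions it was 0.637.

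All 4 libraries called 41 of the 71 regions (57.7%), against 52.6% of all regions. Both WT_CTCF and no MUT_CTCF library called 15 (21.1%), against 19.5% of all regions. A further 6 were called in both WT_CTCF and 1 MUT_CTCF library (8.45%, against 7.96% of all regions), and 9 in 1 WT_CTCF library alone (12.7%, against 18.8%). In both MUT_CTCF and no WT_CTCF library 0 were called, against 0.033% of all regions. Around 32 other limb and skeletal patterning genes, such as Hand2, Gli3 and Runx2, 155 of 263 regions (58.9%) were called in all 4 libraries and 50 (19.0%) with WT_CTCF alone. The members' shares were thus near those of both backgrounds.

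**Figure D1:**
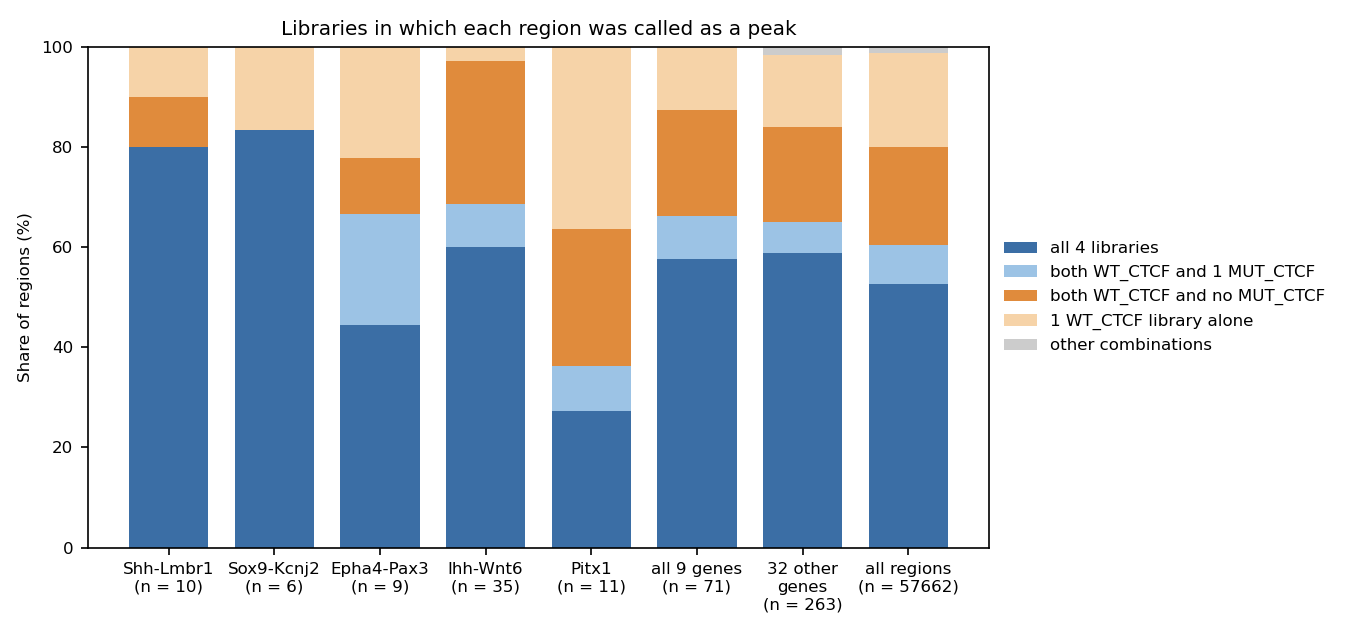
Share of regions (y axis, percent) by the libraries in which they were called, for each locus, for all 71 regions near the 9 genes, for 263 regions near 32 other genes, and for all 57662 regions. Sox9-Kcnj2 and Shh-Lmbr1 had 5 of 6 and 8 of 10 regions called in all 4 libraries, and Pitx1 3 of 11.

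The loci were not alike in this. At Sox9-Kcnj2, 5 of 6 regions were called in all 4 libraries and none with WT_CTCF alone. At Shh-Lmbr1 the counts were 8 of 10 and 1, and at Epha4-Pax3 4 of 9 and 1. At Ihh-Wnt6, 21 of 35 regions were called in all 4 libraries and 10 with WT_CTCF alone. Pitx1 had 3 of 11 in all 4 libraries, 3 with WT_CTCF alone and 4 in a single WT_CTCF library. Differences between loci were not tested, since regions of one locus share their libraries.

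Whether a region was called with MUT_CTCF went with the authors' mean, which covers the libraries of both groups and so is not independent of the calls. The 41 regions called in all 4 libraries had authors' means from 77.5 to 1051 with a median of 275.5. The 15 called with WT_CTCF alone had means from 32.25 to 72.75 with a median of 48.5. Among the 27 members with a mean of 200 or more, 27 were called in all 4 libraries, as were 98.4% of all regions of that strength. Of the 18 members with a mean below 50, 9 were called with WT_CTCF alone (50%), and the share over all regions of that strength was 36.2%. At means from 50 to below 100, 6 of 12 members were called with WT_CTCF alone, against 35.2% of all regions. In that range 2 of the 12 were called in all 4 libraries (16.7%), against 29.9%. Near the 32 other genes, the shares with WT_CTCF alone were 40.0% below 50 and 38.0% from 50 to below 100. Pitx1, with the fewest regions called in all 4 libraries, also had the lowest median mean of the loci, 44.75.

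**Figure D2:**
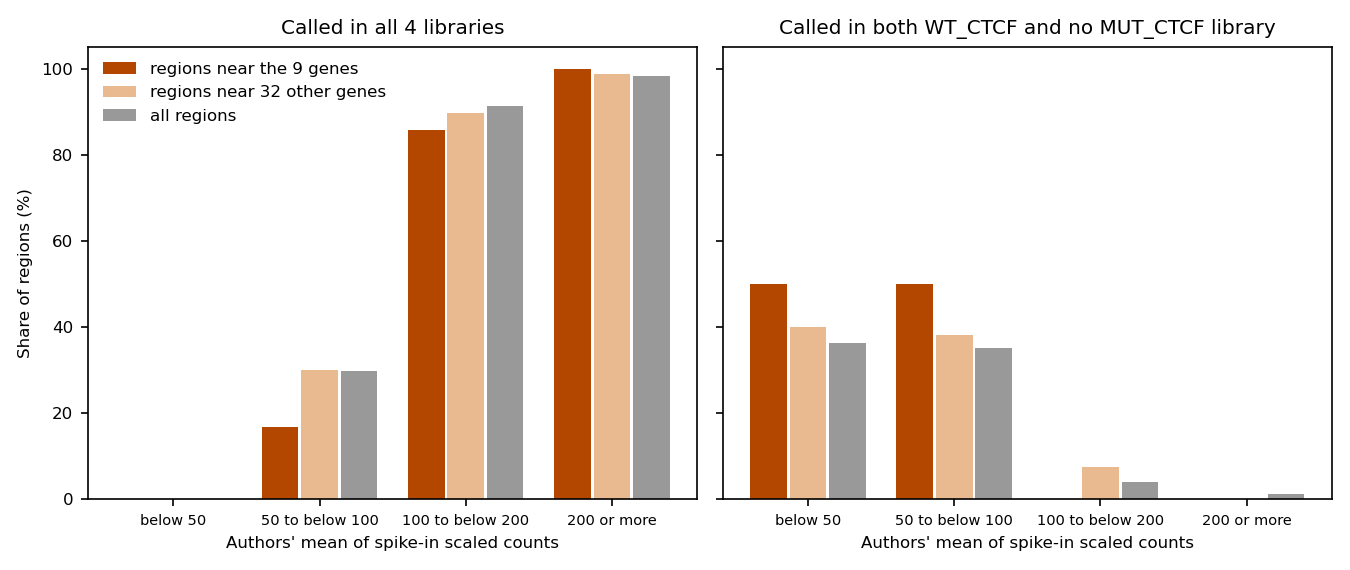
Share of regions (y axis, percent) called in all 4 libraries (left) and in both WT_CTCF and no MUT_CTCF library (right), by the authors' mean of spike-in scaled counts (x axis). In each group the share called in all 4 libraries rises with the mean. No member with a mean of 100 or more was called with WT_CTCF alone. Over all regions that share was 3.94% at means from 100 to below 200 and 1.14% at 200 or more, so the members are near the background.

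The letters of the motif match also differed with the calls. Of the 45 members with a match, 15 carried CCAGAAGAGGGCA or CCAGAAGAGGGCG, the 2 commonest sets of letters among all regions with a match. These letters were looked at after the values had been seen. Each region was classed by 1 match, the one with the fewest mismatches and then nearest to the mean summit. All 4 libraries called 3 of these 15, and 7 were called with WT_CTCF alone. Of the 30 members with other letters, 23 were called in all 4 libraries and 3 with WT_CTCF alone. Their strengths differed too, with median authors' means of 48.5 for the 15 and 272 for the 30. Over all regions, 39.6% of those with the common letters and 73.3% of those with other letters were called in all 4 libraries. At means from 100 to below 200, these shares were 92.0% and 94.1%, and at means from 50 to below 100 they were 27.8% and 34.5%. The shares called with WT_CTCF alone were 28.0% with the common letters and 11.5% with other letters over all regions. They were 37.7% and 29.4% at means from 50 to below 100, and 44.2% and 41.0% below 50. Such near-identical matches are well known in rodent B2 repeats, whose positions were not used here. At Ihh-Wnt6, 8 regions were classed with the common letters, of which 0 were called in all 4 libraries and 6 with WT_CTCF alone. The region of highest mean there was called in all 4 libraries. It was classed with the other letters by its left match, though its right match has common letters. At Pitx1 there were 5, including the strong upstream region printed above, of which 2 were called in all 4 libraries and 1 with WT_CTCF alone. The 4 Pitx1 regions with other letters went the opposite way, with 0 called in all 4 libraries and 2 with WT_CTCF alone. Near the other patterning genes, the shares called in all 4 libraries were 50% with the common letters and 70.8% with others. The shares called with WT_CTCF alone there were 22.1% and 15.1%.

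The scores of the regions called in all 4 libraries were lower with MUT_CTCF at nearly every member, as they were across the genome. The median score of the 41 regions was 779 and 825 in the WT_CTCF libraries (802 ± 32.5, SD, n = 2) and 319 and 330 in the MUT_CTCF libraries (324.5 ± 7.78, SD, n = 2), two-sided exact permutation p = 0.33. With limma across all 30317 regions called in all 4 libraries, 35 of the 41 were lower and 0 higher at an adjusted p below 0.05, and 0 were higher at an unadjusted p below 0.05. Across the genome 90.4% were lower and 0.0627% higher, so the members' share of 85.4% is near the background. The median log2 difference was -1.05 for the members, -1.15 for the 155 regions near the other patterning genes and -1.18 for all regions. In 39 of 41 members the scores of the 2 groups did not overlap, and 96.4% of all regions did the same. Without WT_CTCF replicate 1, 13 members were lower, and without WT_CTCF replicate 2, 0 were (24 at an unadjusted p below 0.05), with the remaining WT_CTCF library assumed to vary as the MUT_CTCF ones did.

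**Figure D3:**
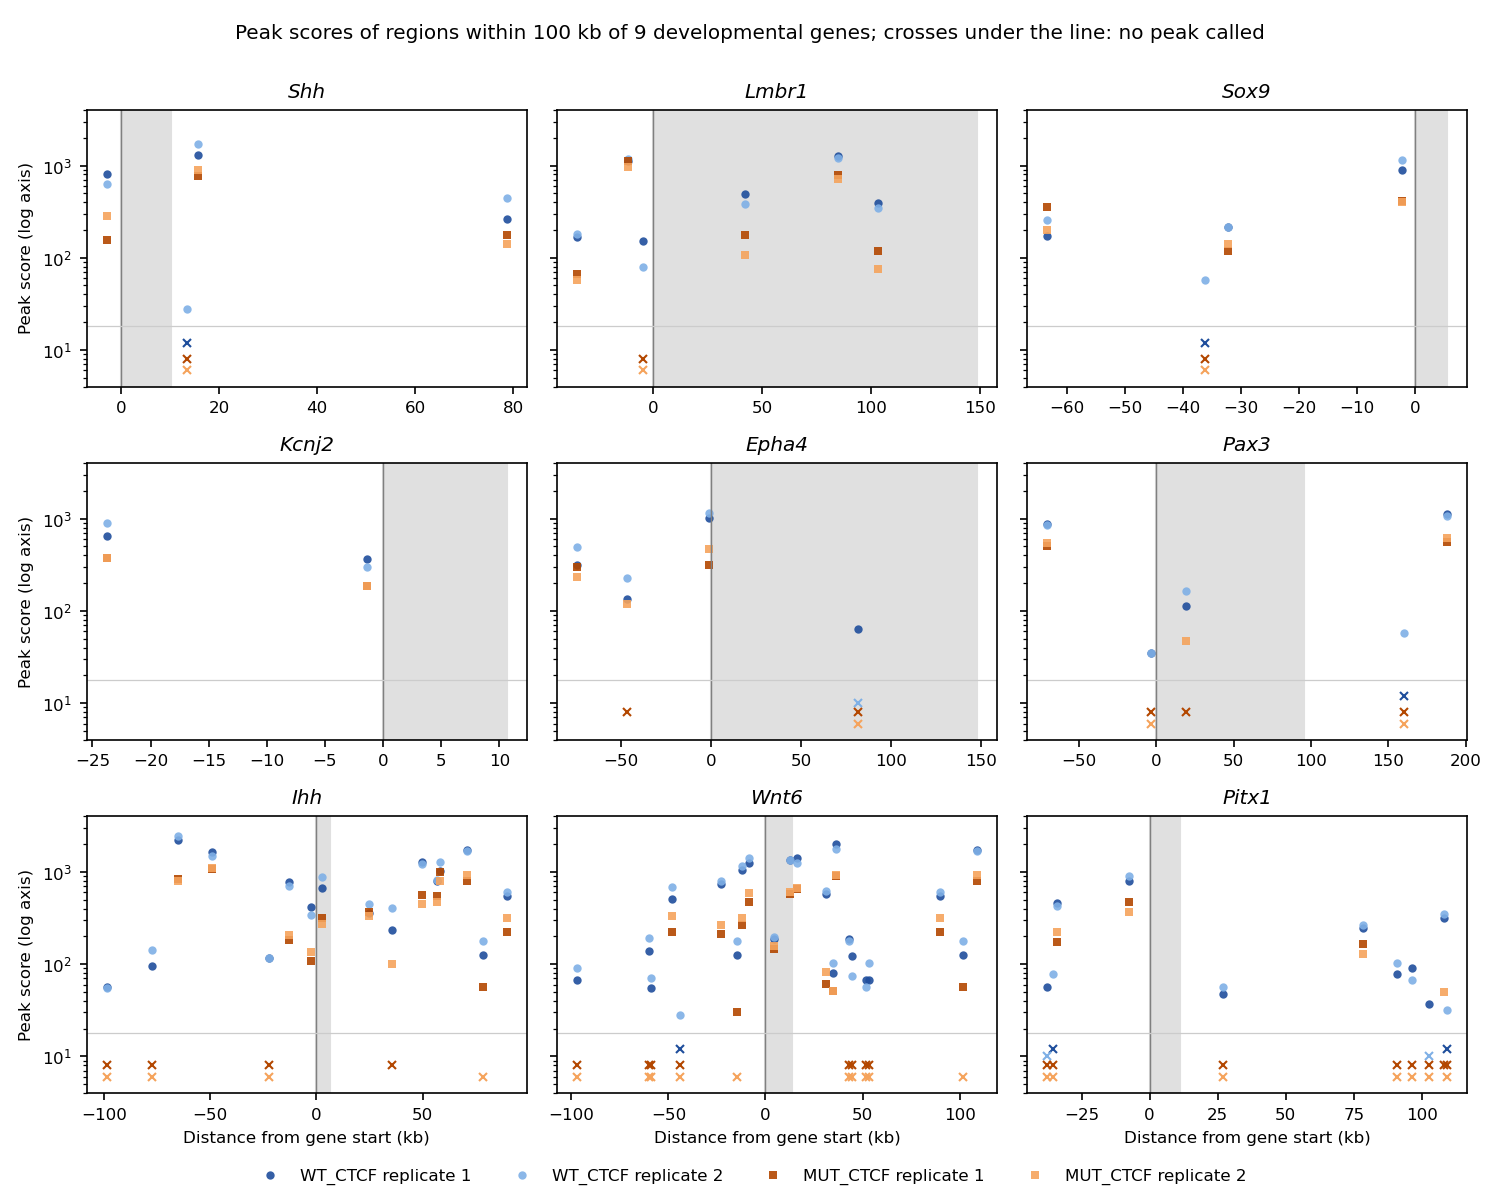
Peak score (log axis) in each of the 4 libraries against the distance of the mean summit from the gene start (kb, in the direction of transcription), for the regions within 100 kb of each gene. Grey marks the gene body and crosses under the line mark libraries with no peak. MUT_CTCF squares lie under WT_CTCF circles at most regions, and at the region 63487 bp upstream of Sox9 they are mixed.

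Since all regions shifted together, by -1.21 between the group means of the library medians, scores were also compared after each library's median log2 score was subtracted. On this relative score 1 of 41 members was lower and 3 were higher (limma, adjusted p below 0.05). Across the genome 3.22% were lower and 1.95% higher. The median relative difference was 0.16 for the members, 0.06 near the other patterning genes and 0.03 for all regions. Leaving out either WT_CTCF library left 0 members past the threshold in either direction. Without MUT_CTCF replicate 1, 2 were lower and 0 higher (8 at an unadjusted p below 0.05). The 2 were the Wnt10a region described next and a Pcbd2 intron region (chr13:55829314-55829727), which scored 315 and 347 with WT_CTCF and 50 with MUT_CTCF replicate 2. The unadjusted counts were 2 lower and 6 higher without WT_CTCF replicate 1, and 3 lower and 6 higher without WT_CTCF replicate 2.

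**Figure D4:**
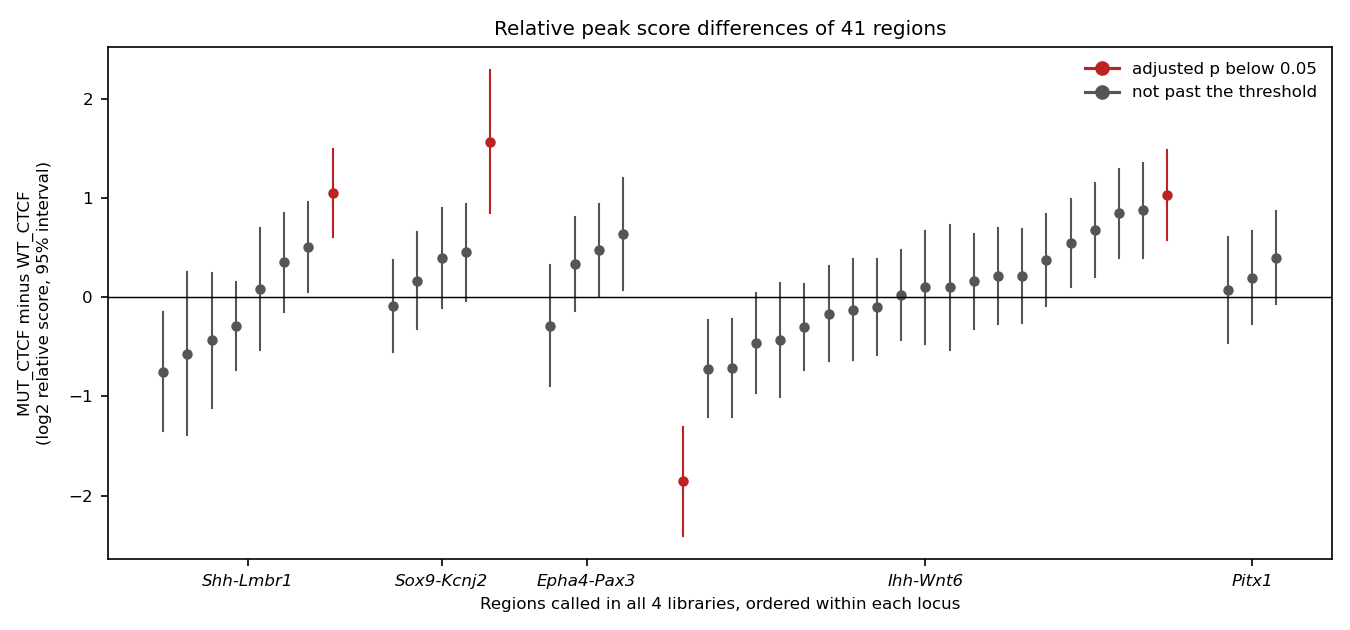
Difference of the relative log2 score (MUT_CTCF minus WT_CTCF, y axis) with its 95% interval for the 41 regions called in all 4 libraries, ordered within each locus. The 4 regions with an adjusted p below 0.05 are in red, 1 below zero in Ihh-Wnt6 and 3 above zero in Shh-Lmbr1, Sox9-Kcnj2 and Ihh-Wnt6.

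The member that was lower lies on a coding exon of Wnt10a, a Wnt ligand gene beside Wnt6 (chr1:74849514-74850005, authors' mean 341). Its scores were 572 and 622 with WT_CTCF and 61 and 83 with MUT_CTCF. Both MUT_CTCF values were far under both WT_CTCF values. The log2 difference was -3.07 ± 0.22 (SE), and the relative difference was -1.86 ± 0.23 (SE, limma adjusted p = 0.0228). The peak was 388 and 476 bp wide with WT_CTCF and 160 and 163 bp wide with MUT_CTCF. Without MUT_CTCF replicate 1 or 2 the region still passed on the relative score (limma adjusted p = 0.045 and 0.0246), and without WT_CTCF replicate 1 or 2 it did not (0.127 and 0.121). After the same centring for width, the difference of -0.96 ± 0.14 (log2, SE) missed the threshold (limma adjusted p = 0.0507). No motif match with at most 1 mismatch was found in it.

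Of the 3 that were higher on the relative score, the strongest lies upstream of Lmbr1, on a non-coding exon of 4632411P08Rik (chr5:29715670-29716385, authors' mean 409). It scored 1122 and 1180 with WT_CTCF and 1109 and 953 with MUT_CTCF. The MUT_CTCF values were just under the WT_CTCF ones, a log2 difference of -0.16 ± 0.19 (SE, limma adjusted p = 0.433). Its relative difference was 1.05 ± 0.19 (SE, limma adjusted p = 0.0367). This difference ran from 0.97 without MUT_CTCF replicate 1 to 1.12 without MUT_CTCF replicate 2. With absent scores set to the lowest, the region missed the threshold (limma adjusted p = 0.0617).

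The second lies 63487 bp upstream of Sox9, on an exon of BC006965 (chr11:112579754-112580299, authors' mean 164). It scored 172 and 254 with WT_CTCF and 358 and 200 with MUT_CTCF. The groups overlapped, and this was the member with a log2 difference above zero, 0.36 ± 0.34 (SE, limma adjusted p = 0.349). Its relative difference was 1.57 ± 0.30 (SE, limma adjusted p = 0.0411). Without MUT_CTCF replicate 1 the log2 difference was -0.06 and the relative difference 1.18 (limma adjusted p = 0.0763).

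The third lies on a coding exon of Ccdc108, 24765 bp past the start of Ihh (chr1:74973228-74973713, authors' mean 193.5). It scored 356 and 444 with WT_CTCF and 372 and 330 with MUT_CTCF, so that the groups overlapped. Its relative difference was 1.03 ± 0.19 (SE, limma adjusted p = 0.0387), and it missed the threshold without any 1 of the 4 libraries, with adjusted p from 0.0563 to 0.204.

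At the Shh-Lmbr1 locus, the region upstream of Shh (chr5:28796127-28796822) scored 818 and 636 with WT_CTCF and 155 and 285 with MUT_CTCF. It was lower by limma (log2 difference -1.78 ± 0.33, SE, adjusted p = 0.00384), and its relative difference of -0.57 did not pass. The score difference missed the threshold without WT_CTCF replicate 1 or 2 (limma adjusted p = 0.129 and 0.106). The region upstream of Lmbr1, 4565 bp from its start (chr5:29709364-29709737), scored 150 and 79 with WT_CTCF and was not called with MUT_CTCF. Of the 3 regions inside Lmbr1, the gene that holds the distant limb enhancer of Shh, all were called in every library and were lower on the score. Over all regions 52.6% were called in every library, and 90.4% of those were lower. The relative differences of the 3 were -0.75, 0.51 and -0.43, and none passed (limma adjusted p from 0.121 to 0.367).

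The Lmbr1 intron region at chr5:29601214-29602261 had the most negative relative difference of its locus, -0.75 ± 0.25 (SE, limma adjusted p = 0.121). Each WT_CTCF library had 1 peak there, with scores of 392 and 347, and widths of 999 and 955 bp. Each MUT_CTCF library had 2 separate peaks, with scores of 42 and 118 in replicate 1 and 76 and 66 in replicate 2. The summits lay 266 and 284 bp from the region's first base with WT_CTCF. With MUT_CTCF they lay at 295 and 883 bp in replicate 1 and at 262 and 887 bp in replicate 2. The motif match printed above lies by the first summit. For this region the fit took the highest peak, which was not the same one of the 2 in both MUT_CTCF libraries.

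The region with the highest authors' mean of all 71, 1051, was divided in the same way. It is intergenic between Wnt10a and Ihh (chr1:74854583-74856139), and a region in an intron of Nhej1 (chr1:75063301-75064123) had higher WT_CTCF scores, 2209 and 2466. WT_CTCF libraries had 1 peak of 1533 and 1498 bp, with scores of 2014 and 1795. MUT_CTCF libraries had a first peak of 506 and 457 bp, with scores of 897 and 938, and a second of 482 and 575 bp, with scores of 453 and 523. The 2 peaks had summits at 315 and 1180 bp in replicate 1, and at 315 and 1174 bp in replicate 2. The motif matches printed above are centred 300 and 1183 bp from the region's first base, near these summits, and point away from each other. On the score of the first peak the log2 difference was -1.05 ± 0.18 (SE, limma adjusted p = 0.0033), and the relative difference was 0.16 ± 0.20. Without WT_CTCF replicate 2 the score difference missed the threshold (limma adjusted p = 0.0569).

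These 2 regions were the members with 1 peak in both WT_CTCF libraries and 2 peaks in both MUT_CTCF libraries. Among all regions called in all 4 libraries 144 of 30317 did so (0.475%), and 4 showed the opposite. The pattern was noticed in the data, and 2 of 41 members is too few to set against that share.

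**Figure D5:**
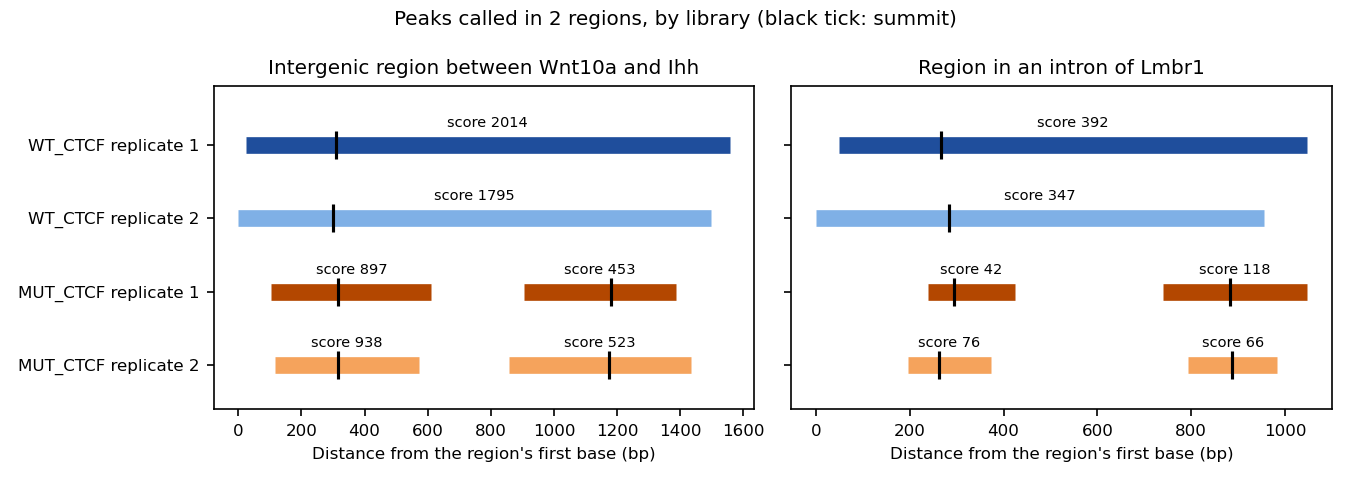
Extent of the called peaks (bars) in each library along 2 regions, against the distance from the region's first base (bp), with scores above the bars and black ticks at the summits. WT_CTCF libraries have 1 peak per region and MUT_CTCF libraries 2.

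At Sox9-Kcnj2, the region nearest to Sox9 (chr11:112640999-112641686) was also the strongest, with scores of 890 and 1151 with WT_CTCF and 416 and 404 with MUT_CTCF. Its relative difference was -0.09 ± 0.19 (SE), close to the shift of all regions. The region nearest to Kcnj2 (chr11:110925867-110926328) scored 362 and 302 with WT_CTCF and 188 and 187 with MUT_CTCF. Both were lower on the score (limma adjusted p = 0.00259 and 0.00847). The Kcnj2 region missed the threshold when any 1 library was left out (limma adjusted p from 0.0517 to 0.0571), and the Sox9 region without WT_CTCF replicate 2 (0.0569). No motif match with at most 1 mismatch was found in either.

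At Epha4-Pax3, the region upstream of Epha4 (chr1:77512800-77513339) had the highest authors' mean of the locus, 506. It scored 1012 and 1155 with WT_CTCF and 313 and 468 with MUT_CTCF, a log2 difference of -1.50 ± 0.25 (SE, limma adjusted p = 0.00292). Without WT_CTCF replicate 1 or 2 it missed the threshold (limma adjusted p = 0.0802 and 0.0992). The relative difference of this Epha4 upstream region was -0.29 ± 0.26 (SE) and did not pass (limma adjusted p = 0.506). The region 74538 bp upstream of Epha4 (chr1:77585960-77586473) scored 317 and 488 with WT_CTCF and 296 and 235 with MUT_CTCF. It missed the threshold on the score (log2 difference -0.58 ± 0.27, SE, limma adjusted p = 0.0849) and on the relative score (0.64 ± 0.24, SE, limma adjusted p = 0.149). The region nearest to Pax3, 3242 bp upstream of it (chr1:78196838-78197049), was weak, with scores of 35 and 35 with WT_CTCF, and was not called with MUT_CTCF.

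At Ihh-Wnt6, the region in the Ihh intron (chr1:74995166-74995948) scored 668 and 879 with WT_CTCF and 319 and 273 with MUT_CTCF, and was lower on the score (log2 difference -1.38 ± 0.22, SE, limma adjusted p = 0.00265), except without WT_CTCF replicate 2 (0.0601). The relative difference of the Ihh intron region was -0.16 ± 0.20 (SE) and did not pass (limma adjusted p = 0.633). The region in the Wnt6 intron (chr1:74822483-74822903) scored 189 and 199 with WT_CTCF and 145 and 156 with MUT_CTCF. The groups were close but did not overlap, and the log2 difference of -0.37 ± 0.18 (SE) missed the threshold (limma adjusted p = 0.0965). Of the regions called with WT_CTCF alone, the strongest by mean score lies between Wnt10a and Ihh (chr1:74861499-74862020) and scored 189 and 177. It was the first of 4 neighbouring regions, over 10.5 kb, that were all called with WT_CTCF alone. The run was noticed in the data, and how often such runs occur over all regions was not counted. The authors' means of the 4 ran from 44.25 to 72.75. Over all regions, 36.2% with a mean below 50 and 35.2% with a mean from 50 to below 100 were called with WT_CTCF alone.

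At Pitx1, the region 7732 bp upstream (chr13:55944941-55945570) was the strongest, with scores of 789 and 909 with WT_CTCF and 473 and 372 with MUT_CTCF. Another lay 33998 bp upstream (chr13:55971257-55971758) and scored 455 and 424 with WT_CTCF and 176 and 225 with MUT_CTCF. The third called in all 4 libraries, in an intron of Pcbd2 (chr13:55858905-55859398), scored 244 and 268 with WT_CTCF and 164 and 129 with MUT_CTCF. All 3 were lower on the score, with limma adjusted p from 0.00363 to 0.0112, and their relative differences lay between 0.07 and 0.40. Without WT_CTCF replicate 1 or 2 none of the 3 passed on the score (limma adjusted p from 0.072 to 0.121), and without MUT_CTCF replicate 2 the Pcbd2 one did not (0.0566). The Pcbd2 region printed last above (chr13:55846628-55846933) scored 79 and 102 with WT_CTCF and was not called with MUT_CTCF.

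Peaks were also narrower with MUT_CTCF. The median width of the 41 regions was 540 and 610 bp in the WT_CTCF libraries and 431 and 395 bp in the MUT_CTCF libraries (575 ± 49.5 against 413 ± 25.5, SD, n = 2 each, two-sided exact permutation p = 0.33). With limma 16 of 41 were narrower (39.0%) and 0 wider, also at an unadjusted p below 0.05, against 42.0% narrower and 0.0165% wider across the genome. Without either WT_CTCF library 0 members passed, with 21 narrower at an unadjusted p below 0.05 without replicate 1 and 14 without replicate 2. With each library's median log2 width subtracted, 1 of 41 members was narrower and 0 wider, against 1.10% narrower over all regions. It was the divided region of highest mean (-1.20 ± 0.13, SE, limma adjusted p = 0.0367). In both divided regions the MUT_CTCF width is that of the highest peak alone. Summit positions moved little, with a median range over the 4 libraries of 15.0 bp in the members and 20.0 bp in all regions. Apart from the divided Lmbr1 intron region, where the range was 621 bp, no member called in all 4 libraries had a range above 68.0 bp.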

How the data were processed

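Per the study's methods, the authors aligned ChIP-seq reads to mm9 with Bowtie2 (version 2.3.4.1 in the submitters' processing notes), removed multiple alignments and duplicates, scaled tracks by Drosophila spike-in and called peaks per library with MACS2 (2.1.1.20160309). The deposited score of each peak is the caller's value, whose track and cutoff, and whether the input was used, are not given in the sources used here. The deposited signal per region is the authors' mean of spike-in scaled counts, given with no SD or n. The same table holds the authors' own comparison from DESeq2 (log2 fold changes, standard errors, test statistics, p-values and adjusted p-values), which was not used. Read depth is unknown, so no counting interval is given.

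Regions and peaks were joined at 1 bp of overlap, and the highest of several peaks was taken. Scores and widths were tested on the log2 scale with limma 3.58.1 (R 4.3.3), genotype only, over the 30317 regions called in all 4 libraries, two-sided, with Benjamini-Hochberg adjustment and a threshold of 0.05. Libraries were compared with exact permutation tests. The relative score subtracts each library's median. The fit was also run on simulated data in which few regions changed. That run does not cover a shift of most regions, as seen here. A promoter is the 3000 bp upstream of a transcript start. Motifs were read from NCBIM37, with distances taken from the mean summit.

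Values were given for the region with the highest mean per locus, the region nearest each gene's start, the largest and smallest relative differences per locus and the strongest region called with WT_CTCF alone. Members and lists were chosen with earlier results of these data known. Alternatives changed the window, calling rule, libraries, filter on the mean, absent scores and mismatches.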

Additional observations from a re-analysis of the deposited data

How the results depend on the processing

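Read depth, unknown here, limits what an absent peak means, and each group has 2 libraries, so a fit without 1 of them rests on the spread of the others. Around the 9 genes, windows of 200 kb gave 115 regions. Of the 71 regions, 22 were called in all 4 libraries when scores had to reach the pooled median. The number called with WT_CTCF alone was 9 under that rule, 23 when peaks had to cover 50% of the region, 24 when 1 replicate sufficed, 8 with windows of 50 kb and 24 with windows of 200 kb. Leaving out each library gave 17 to 21 of these. A motif match with 0 mismatches was in 10 regions.

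Leaving out each library gave 0 to 30 members lower by score, and 0 to 22734 regions lower and 0 to 12 higher over all regions, with 0 members and 0 regions lower without WT_CTCF replicate 2. The members' median score difference ran from -1.12 to -1.01 and was -1.30 with absent scores set to the lowest. By relative score these fits gave 0 to 2 members lower and 0 to 2 higher, and 0 to 1201 regions lower and 0 to 370 higher over all. Setting absent scores to the lowest left 0 members lower and 0 higher, and likewise 0 and 0 of all regions. The median relative difference ran from 0.082 to 0.22, and was 0.31 with absent scores set to the lowest and 0.086 with 50% cover. By width the counts ran from 0 to 14 members and 0 to 9247 regions narrower, and 0 to 10 regions wider. These fits have fewer libraries; the cause of the other changes was not tested.

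The replicate numbers did not pair the libraries (correlation of deviations -0.0033). With a replicate block 34 members were lower by score, 2 in place of 3 were higher by relative score, since the Ccdc108 exon region missed the threshold (limma adjusted p = 0.0518), 376 regions over all were higher by relative score, and the difference in regions called stayed at -22.5 (exact sign-flip p = 0.5, the smallest possible).

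Signs changed at 5 named regions. On the score, the exon region upstream of Sox9 ran from -0.064 without MUT_CTCF replicate 1 to 0.78. On the relative score, the region nearest to Sox9 ran from -0.22 to 0.032 without WT_CTCF replicate 2 and was 0.31 with absent scores set to the lowest, the Epha4 upstream region ran from -0.61 to 0.034 without MUT_CTCF replicate 1 and was 0.11 with absent scores, and the Ihh intron region was 0.24 with absent scores. The region 33998 bp upstream of Pitx1 ran from -0.14 without MUT_CTCF replicate 2 to 0.28, and was -0.027 with 50% cover.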
